A study of Mus musculus with 12 samples.

Results

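The enzymes that break down amino acids and dispose of their nitrogen were followed in mouse liver through 49 listed genes, arranged in 9 routes: the urea cycle with glutamate nitrogen (8 genes), the aspartate and alanine transaminases (3), tyrosine (5), tryptophan (6), histidine (4), serine, glycine and glyoxylate (7), methionine and cysteine (8), lysine and proline (4) and the branched chain amino acids (4). The genes were found by symbol and joined by gene identifier to the count table, which has 51912 gene records. All 49 were present, and all 49 were among the 8594 genes that passed the filter on low counts. Over the 12 libraries, 1 gene of the list, Bhmt, passed every test setting used in 1 comparison, while the group means of 39 genes lay within 1.5-fold of each other.

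The 4 groups, each of 3 adult male mice, were wild-type (WT) mice given corn oil, WT mice given CITCO, mice carrying human CAR and human PXR in place of the mouse receptors (hCAR/hPXR) given CITCO, and mice without mouse Car and Pxr but with human PXR (Car KO/hPXR) given CITCO. CITCO is an agonist of human CAR, and CAR and PXR are nuclear receptors that sense foreign compounds in hepatocytes. The paper cites in vitro work that proposes activation of human PXR by CITCO too, and both humanised genotypes carry human PXR. The modified mice were made on a C57BL/6NTac background. Injections were intraperitoneal and daily for 4 days, with tissue collected on day 5; the labels give CITCO at 10 mg/kg, and the methods also name a higher dose for short-term work. Corn oil was given to WT mice alone in the libraries used here, so in both humanised genotypes the effect of CITCO and that of the genotype cannot be told apart. Both humanised groups share the loss of mouse Pxr and of mouse Car, and hCAR/hPXR mice differ from Car KO/hPXR mice in carrying human CAR.

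Amino acids are stripped of their nitrogen mainly in the liver. Transaminases collect amino groups on glutamate and aspartate, and the urea cycle of periportal hepatocytes turns ammonia and the aspartate nitrogen into urea. The carbon skeletons then run through separate routes into pyruvate, citric acid cycle intermediates or acetyl-CoA, and the methionine and glycine routes also feed the pool of methyl groups and folate-bound carbon.

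The 3′-end libraries held 1167027 to 2341572 counts. Between 1.457% and 2.358% of the counts of a library came from the 49 genes, and a member had between 12 and 5627 counts in a library. Levels are given as CPM (the count divided by the TMM-scaled library total, times 1e6), which compare libraries within a gene and not genes with each other. Hepatocyte markers summed over 6 genes to 47560 to 55430 CPM in WT corn oil and 48020 to 55780 CPM in WT CITCO livers. They summed to 40580 to 58160 CPM in hCAR/hPXR and 48180 to 51860 CPM in Car KO/hPXR livers. The hCAR/hPXR median was 41730 CPM, below every library of the other groups, so the overlap rested on its highest library. The mouse genes Nr1i2 (PXR) and Nr1i3 (CAR) followed the labelled genotypes, with at most 6 counts in a humanised library, and the CAR target Cyp2b10 had 184 to 288 counts in the hCAR/hPXR libraries and at most 6 elsewhere. Neutrophil markers summed to 32.98 to 46.71 CPM over 4 genes in hCAR/hPXR livers and to at most 10.85 CPM in the other groups, nearly all of it from S100a8 and S100a9. The granule genes Ngp and Camp were each under 1 CPM in all 12 libraries. Kupffer cell markers summed to 324.5 to 411.9 CPM over 6 genes in hCAR/hPXR livers, 286.4 to 308.2 in Car KO/hPXR, 250.5 to 386.6 in WT CITCO and 211.3 to 281.3 CPM in WT corn oil livers. Endothelial markers summed to 223.3 to 256.1 CPM over 6 genes in hCAR/hPXR livers, 263 to 291.6 in Car KO/hPXR, 254.9 to 285.6 in WT CITCO and 269.3 to 304.1 CPM in WT corn oil livers. For both of these lists the sums of hCAR/hPXR and Car KO/hPXR did not overlap. Cd5l was the largest part of the Kupffer sums and Kdr of the endothelial ones, so the sums do not speak for every gene listed. Between these 2 groups, 4 Kupffer genes had log2 fold changes above 0 and 2 below (median 0.21). The endothelial genes also had 4 above 0 and 2 below (median 0.09), although the hCAR/hPXR sums were the smaller ones. Red blood cell markers summed to 1859 to 2192 CPM over 5 genes in hCAR/hPXR livers and 1987 to 3985 CPM in the others. The part of these cell types in the differences below was not tested. The replicates of a group are taken to be separate mice, as the group size given in the sources implies.

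A gene was called when the adjusted p was under 0.05 (edgeR's quasi-likelihood test on all 12 libraries, Benjamini-Hochberg adjustment over 8594 genes) and the fold change was over 1.5. A further test asked whether a gene differed at all among the 4 groups, with an adjusted p under 0.05 and no fold threshold. By that test 3 of the 49 genes were called (Bhmt, Hal and Aadat), 6.12% of the list, where 122 of all genes tested, 1.42%, were called.

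**Figure D1:**
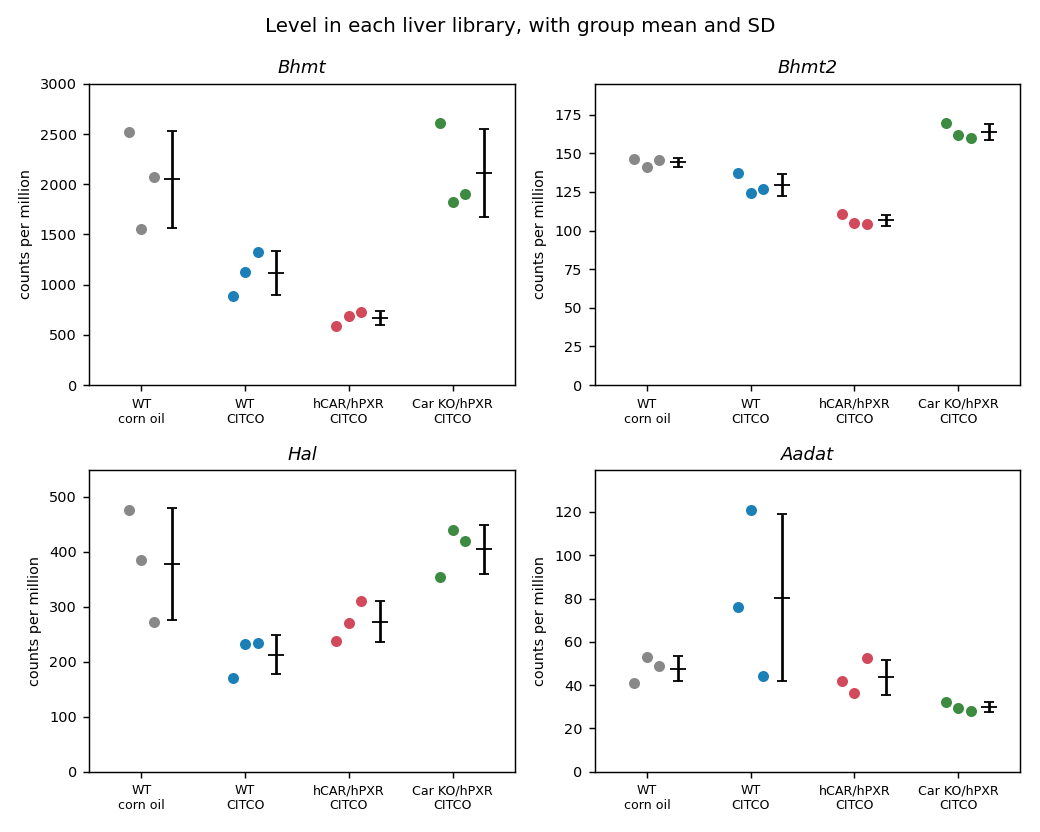
Level in CPM (y axis, from 0) of Bhmt, its neighbour Bhmt2, Hal and Aadat in each of the 12 libraries; points are libraries, coloured by group, and the bar beside them is the group mean with SD (n = 3). Bhmt lies between 593 and 723 CPM in hCAR/hPXR livers and between 1819 and 2611 CPM in Car KO/hPXR livers, and the Aadat spread in WT CITCO livers runs from 44.3 to 121 CPM.

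Bhmt (ENSMUSG00000074768, GRCm38 chromosome 13, 93616675 to 93637961, minus strand) encodes betaine-homocysteine S-methyltransferase, which uses betaine from choline to turn homocysteine back into methionine. Its levels were 2520, 1557 and 2075 CPM in the WT corn oil libraries and 890.0, 1131 and 1324 CPM in the WT CITCO libraries. In hCAR/hPXR livers given CITCO they were 593, 688 and 723 CPM, and in Car KO/hPXR livers given CITCO 2611, 1819 and 1901 CPM. The hCAR/hPXR libraries were thus the lowest of all 12, the WT CITCO libraries lay above them and below every other library, and the corn oil and Car KO/hPXR libraries overlapped.

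With CITCO, Bhmt was 3.16-fold lower in hCAR/hPXR livers than in Car KO/hPXR ones, -1.66 on the log2 scale with a standard error of 0.213 (95% confidence interval -2.11 to -1.21, adjusted p = 0.00063 from edgeR). It was the only member called between these groups (2.04% of the list), where 0.582% of all genes tested were called, and it was called under all 13 alternatives, with adjusted p-values of at most 0.00871. The other comparisons of Bhmt did not pass the test. WT CITCO against WT corn oil gave -0.88 on the log2 scale (standard error 0.208, edgeR adjusted p = 0.121), hCAR/hPXR against WT, both given CITCO, one of -0.74 (0.209, adjusted p = 0.19), and Car KO/hPXR against WT, both given CITCO, one of 0.92 (0.209, adjusted p = 0.0747). In each of these 3 comparisons the libraries did not overlap, and DESeq2 called all 3, with adjusted p-values of 0.00416, 0.0239 and 0.000685, as did edgeR without a filter on low counts. Without WT CITCO replicate 3 the third passed as well (1.06 on the log2 scale, adjusted p = 0.0431). The test over the 4 groups gave an adjusted p of 0.000556 and stayed under the threshold in all 18 alternatives. These are bulk livers, where fewer cells with a transcript and less transcript per cell cannot be told apart.

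Counts of Bhmt need a note on their making. RSEM can split a read among gene records, and 33.3% of the Bhmt values in the 12 libraries lay within 0.05 of a whole number. The pseudogene Bhmt-ps1 was given 1 count in 1 library and 0 in the other 11, and Gm15622, which overlaps Bhmt on the opposite strand, had 0 in all 12. The neighbouring paralogue Bhmt2 (chromosome 13, 93655720 to 93674302, minus strand), 17758 bases from Bhmt, encodes an S-methylmethionine-dependent homocysteine methyltransferase and was looked at after the values of Bhmt were seen. It had 104 to 111 CPM in hCAR/hPXR libraries, 124 to 138 CPM in WT CITCO libraries, 141 to 146 CPM in WT corn oil libraries and 160 to 170 CPM in Car KO/hPXR libraries. The groups stood in this order without overlap. With CITCO, Bhmt2 was 1.54-fold lower in hCAR/hPXR livers than in Car KO/hPXR ones (log2 fold change -0.62, standard error 0.136, adjusted p = 0.0423 by edgeR's test), a call that was lost in 10 of 13 alternatives, including those without each of the 6 libraries, with adjusted p-values up to 0.171.

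The bases before the transcription start of the called members are shown because CAR and PXR belong to a receptor family that binds elements built from AGGTCA. Windows of 300 bases, 250 before and 50 after the RefSeq start (GRCm38.p6), were searched on both strands for these 6 letters. In the Bhmt window they occurred 3 times, all on the strand of the gene, and in the windows of Bhmt2, Hal and Aadat 0 times. The letters were found in 16.3% of all 32851 windows, at least 3 times in 0.183% of them, and in the windows of 14 of the 38 members that had one. A member was counted if any of its windows held them, so its share is not per window. Hgd had 2 matches and Tdo2, Gnmt, Ahcy and Got2 had 1 each, and none of these genes was called. A match is a string of letters, not a bound site. Printed below, 5′ to 3′ on the strand of the gene and with AGGTCA in capitals, are the bases of each window that lie before the start and outside the gene record of GENCODE M21; for Bhmt (chr13:93637962-93638008) and Aadat (chr8:60505874-60505931) that record begins further upstream than the RefSeq start, and the printed stretch is short. The Bhmt stretch holds 1 of the 3 matches. The Hal stretch is chr10:93488518-93488767.
Bhmt: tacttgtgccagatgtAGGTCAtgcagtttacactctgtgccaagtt
Hal: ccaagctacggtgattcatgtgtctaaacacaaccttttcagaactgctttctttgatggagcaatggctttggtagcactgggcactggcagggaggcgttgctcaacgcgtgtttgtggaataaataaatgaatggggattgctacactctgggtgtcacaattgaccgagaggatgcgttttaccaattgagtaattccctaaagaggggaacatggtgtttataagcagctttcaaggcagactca
Aadat: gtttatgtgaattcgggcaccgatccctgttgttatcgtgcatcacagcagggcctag

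Among the other genes of the methionine and cysteine route, none was called. Mat1a, which makes S-adenosylmethionine, Gnmt, which spends it on glycine, and Ahcy, which cleaves the S-adenosylhomocysteine that results, had group means within 1.14-fold, 1.2-fold and 1.11-fold of each other. Cbs and Cth, which pass homocysteine on to cysteine, were within 1.25-fold and 1.41-fold, and Cdo1, which oxidises cysteine, within 1.35-fold. Csad, which decarboxylates cysteine sulphinate on the way to taurine, had the second widest range of group means in the route, 2.23-fold, with 837 ± 234 CPM (SD, n = 3) in WT corn oil livers and 374 ± 141 CPM (SD, n = 3) in Car KO/hPXR livers. Its adjusted p over the 4 groups was 0.103 in edgeR's test, and the test passed without WT CITCO replicate 2 and without a filter on low counts.

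Hal (ENSMUSG00000020017, chromosome 10, 93488768 to 93519304, plus strand) encodes histidine ammonia-lyase, which takes ammonia from histidine at the start of its breakdown. Levels were 476, 385 and 272 CPM in the WT corn oil libraries and 171, 233 and 234 CPM in the WT CITCO libraries, with no overlap. The hCAR/hPXR libraries had 238, 269.6 and 311 CPM and the Car KO/hPXR libraries 355, 438 and 419.7 CPM, again apart from each other and both above WT CITCO.

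Hal was called over the 4 groups (adjusted p = 0.0429, edgeR's quasi-likelihood test) and in none of the 4 comparisons. The log2 fold change was -0.83 for WT CITCO against WT corn oil (standard error 0.195, adjusted p = 0.118) and 0.93 for Car KO/hPXR against WT, both given CITCO (0.196, adjusted p = 0.0529). DESeq2 called both (adjusted p = 0.0156 and 0.0011), as did edgeR without a filter on low counts, and limma and a fit of the 2 groups alone called the second (0.0347 and 0.0291). For hCAR/hPXR it was 0.36 against WT (95% confidence interval -0.05 to 0.77, adjusted p = 0.636) and -0.57 against Car KO/hPXR (-0.98 to -0.16, adjusted p = 0.257). The call over the 4 groups was lost in 12 of 18 alternatives: with the replicate block and without any single library other than WT corn oil replicate 3, with adjusted p-values up to 0.187, reached without WT CITCO replicate 1. Hal is also a marker of periportal hepatocytes. The 4 periportal markers outside the list summed to 3789 to 5117 CPM in WT corn oil, 3445 to 4209 in WT CITCO, 3183 to 4303 in hCAR/hPXR and 3026 to 4892 CPM in Car KO/hPXR livers, which overlapped. Pck1 and Cyp2f2 made up most of these sums. The 7 pericentral markers summed to 4804 to 5789 CPM in WT corn oil and 5515 to 6594 CPM in WT CITCO livers, which overlapped too. For WT CITCO against WT corn oil, 6 of them lay above 0 and 1 below (median 0.16). Of the full periportal list of 7, which includes Hal, Sds and Gls2, 2 lay above 0 and 5 below (median -0.21). The part of periportal and pericentral cells in the Hal differences was not tested.

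The 3 other histidine genes follow Hal in the route: Uroc1, urocanate hydratase, Amdhd1, imidazolonepropionase, and Ftcd, which hands the formimino group to folate. Their group means had ranges of 1.18-fold, 1.38-fold and 1.46-fold. All 4 genes of the route had fold changes below 0 on the log2 scale for WT CITCO against WT corn oil (median -0.48) and above 0 for Car KO/hPXR against WT given CITCO (median 0.51). The medians of all genes tested were -0.00 in both comparisons, which share the WT CITCO libraries.

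Aadat (ENSMUSG00000057228, chromosome 8, 60505932 to 60545677, plus strand) encodes kynurenine/alpha-aminoadipate aminotransferase, which acts in tryptophan and lysine breakdown. It had 41.2, 52.9 and 48.9 CPM in the WT corn oil libraries, 75.9, 121 and 44.3 CPM in the WT CITCO libraries, 42.0, 36.4 and 52.5 CPM in the hCAR/hPXR libraries and 32.4, 29.2 and 27.9 CPM in the Car KO/hPXR libraries. WT CITCO was the most scattered group and 1 of its libraries lay within the range of the WT corn oil libraries, while the Car KO/hPXR libraries were the lowest of the 12.

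Aadat was 2.68-fold lower in Car KO/hPXR than in WT livers, both given CITCO (log2 fold change -1.42, standard error 0.285, 95% confidence interval -2.02 to -0.82, adjusted p = 0.0383 by edgeR's test). It was the only member called in this comparison, in which 0.256% of all genes tested were called. The call was lost in 8 of 13 alternatives. Without WT CITCO replicate 2, the highest library, the log2 fold change was -1.02 (adjusted p = 0.228), and without WT CITCO replicate 1 or without any of the 3 Car KO/hPXR libraries the adjusted p was 0.113 to 0.172. Settings other than leaving out a library also lost the call, among them the replicate block. Over those other settings the log2 fold change ran from -1.43 to -0.87. The log2 fold changes of Aadat in the other comparisons did not pass the test: 0.76 for WT CITCO against WT corn oil (adjusted p = 0.346), -0.89 for hCAR/hPXR against WT given CITCO (adjusted p = 0.251) and 0.53 for hCAR/hPXR against Car KO/hPXR (adjusted p = 0.559). The paper, which used DESeq2, does list Aadat as lower in hCAR/hPXR than in WT livers given CITCO. Without WT CITCO replicate 3, the lowest of its group, the comparisons of WT CITCO with WT corn oil and of hCAR/hPXR with WT CITCO passed, with log2 fold changes of 1.05 (adjusted p = 0.0444) and -1.19 (adjusted p = 0.0291), and the second passed without a filter on low counts too (adjusted p = 0.0184). The test over the 4 groups gave an adjusted p of 0.0491, which was lost in 13 of 18 alternatives, 11 of them without a single library (every one but WT CITCO replicate 3).

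The other tryptophan genes belong to the kynurenine pathway. Tdo2, which opens the indole ring, was within 1.13-fold between group means, with libraries from 819 to 1693 CPM, both in the WT corn oil group. Kmo, Kynu and Haao, the hydroxylase, kynureninase and dioxygenase further down, were within 1.13-fold, 1.27-fold and 1.39-fold, and Afmid, the formamidase, within 1.46-fold. None of these 5 had an adjusted p under 0.545 over the 4 groups.

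In the remaining 6 routes edgeR called no member. Over the 4 groups DESeq2 called Amt among them, and edgeR without a filter on low counts called Amt, Sds and Prodh. Each route is described by the gene with its smallest p over the 4 groups.

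**Figure D2:**
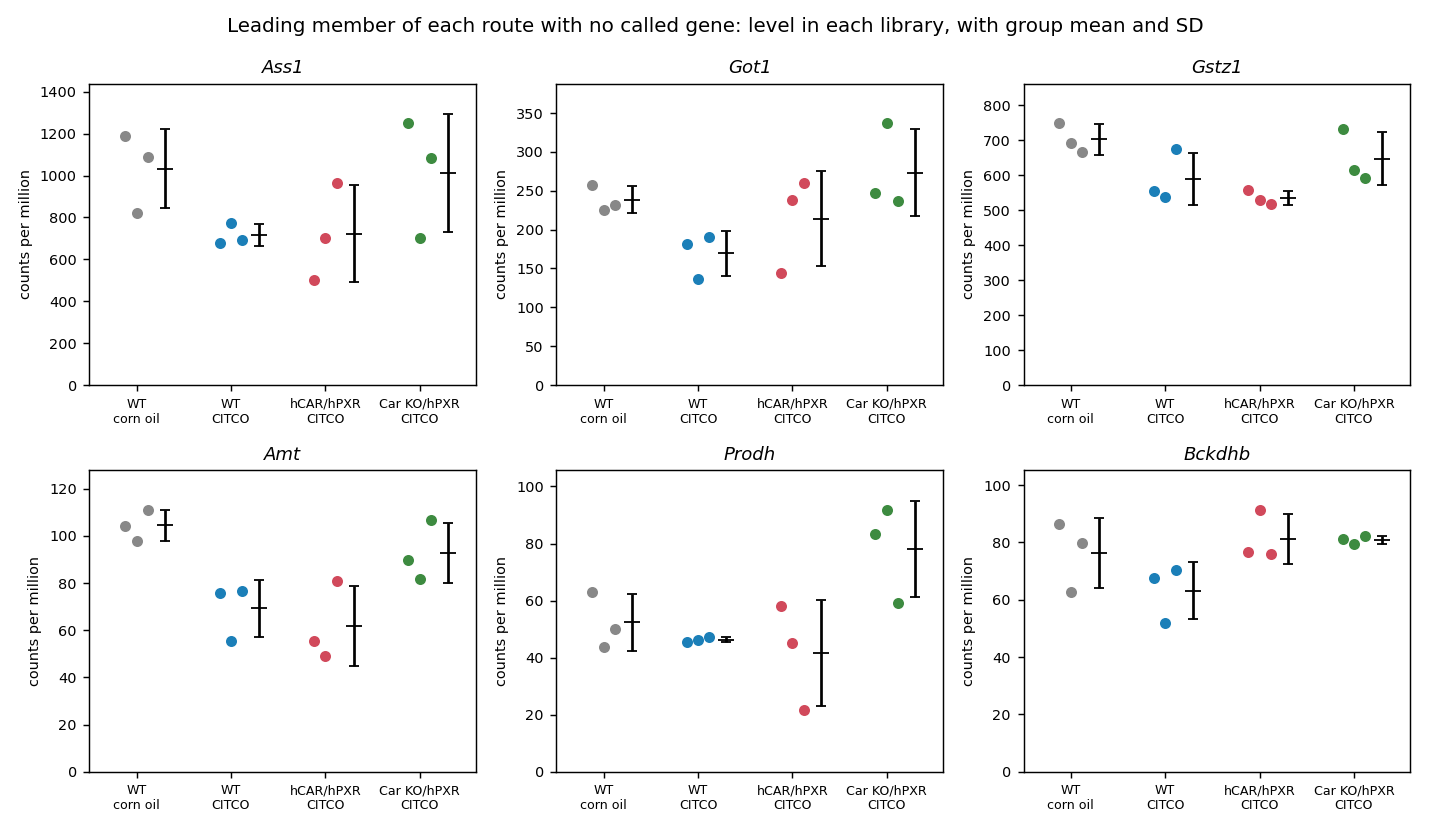
Level in CPM (y axis, from 0) of Ass1, Got1, Gstz1, Amt, Prodh and Bckdhb in each of the 12 libraries; points are libraries, coloured by group, and the bar beside them is the group mean with SD (n = 3). Ass1 lies between 678 and 776 CPM in WT CITCO livers and above 820 CPM in WT corn oil livers, and Prodh between 59.1 and 91.8 CPM in Car KO/hPXR livers.

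In the urea cycle, Ass1 (argininosuccinate synthase, which joins citrulline to aspartate; chromosome 2, 31470207 to 31520672) had 1187, 823 and 1087 CPM in WT corn oil and 678, 776 and 694 CPM in WT CITCO libraries. In hCAR/hPXR libraries it had 501, 703 and 966 CPM, and in Car KO/hPXR libraries 1251, 699.7 and 1083 CPM. The 2 WT groups did not overlap, but the difference of -0.53 on the log2 scale (standard error 0.233) had an adjusted p of 0.501 by edgeR's test. The enzymes on either side, Cps1, Otc, Asl and Arg1, had group means within 1.27-fold, 1.24-fold, 1.2-fold and 1.08-fold of each other. Nags, which makes the activator of Cps1, was within 1.27-fold, and Glud1 and Gls2, which release ammonia from glutamate and glutamine, within 1.33-fold and 1.28-fold. No member of this route had an adjusted p under 0.43 over the 4 groups.

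Got1, the cytosolic aspartate transaminase (chromosome 19, 43499752 to 43524605), had 258, 225 and 232 CPM in WT corn oil, 182, 137 and 191 CPM in WT CITCO, 145, 238 and 260 CPM in hCAR/hPXR and 247, 337 and 237 CPM in Car KO/hPXR libraries. The WT CITCO libraries lay below those of WT corn oil and of Car KO/hPXR. Against WT CITCO, the Car KO/hPXR log2 fold change was 0.69 (standard error 0.207, 95% confidence interval 0.25 to 1.12, adjusted p = 0.21, edgeR's test), and it passed only when no filter on low counts was used (adjusted p = 0.0248). The mitochondrial enzyme Got2 and the alanine transaminase Gpt were within 1.17-fold and 1.16-fold.

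In the tyrosine route, Gstz1, which isomerises maleylacetoacetate (chromosome 12, 87147165 to 87164723), had 749.8, 692 and 665 CPM in WT corn oil, 556, 539 and 676 CPM in WT CITCO, 559, 529 and 519 CPM in hCAR/hPXR and 733, 615 and 592 CPM in Car KO/hPXR libraries. The hCAR/hPXR libraries lay below those of Car KO/hPXR, with -0.27 on the log2 scale (standard error 0.15, edgeR adjusted p = 0.555). Pomt2 overlaps Gstz1 on the opposite strand, and the strand setting of the counting is not given in the sources used here. Tat, the transaminase that starts the route, had a range of group means of 1.41-fold, and Hpd, Hgd and Fah, the dioxygenases and the hydrolase of the later steps, of 1.28-fold, 1.39-fold and 1.26-fold.

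In the serine and glycine route, Amt (chromosome 9, 108296853 to 108302302) encodes the aminomethyltransferase of the glycine cleavage system. It had 104, 98.0 and 111 CPM in WT corn oil, 75.9, 55.3 and 76.7 CPM in WT CITCO, 55.4, 49.2 and 80.9 CPM in hCAR/hPXR and 89.6, 81.8 and 107 CPM in Car KO/hPXR libraries. Every WT corn oil and Car KO/hPXR library lay above every library of the other two groups. The log2 fold change of WT CITCO against WT corn oil was -0.59 (standard error 0.197, adjusted p = 0.327 by edgeR's test), and the adjusted p over the 4 groups was 0.132, where DESeq2 called Amt. Gldc, the decarboxylase of the same system, had a range of 1.68-fold and an adjusted p of 0.615. Sds, serine dehydratase, had the widest range of the route, 2.01-fold, with 51.2 ± 13.6 CPM (SD, n = 3) in WT CITCO and 103 ± 18.5 CPM (SD, n = 3) in Car KO/hPXR livers and an adjusted p of 0.296 over the 4 groups. Of the 12 Sds values, 0% lay within 0.05 of a whole number. Its relative Sdsl had a range of 1.57-fold, Shmt1 and Shmt2, the serine hydroxymethyltransferases, 1.12-fold and 1.26-fold, and Agxt, which detoxifies glyoxylate, 1.3-fold.

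Prodh, proline dehydrogenase (chromosome 16, 18060357 to 18090203), had 63.2, 43.7 and 50.1 CPM in WT corn oil, 45.4, 46.3 and 47.1 CPM in WT CITCO, 58.0, 45.1 and 21.7 CPM in hCAR/hPXR and 83.2, 91.8 and 59.1 CPM in Car KO/hPXR libraries. The hCAR/hPXR libraries lay below those of Car KO/hPXR, a log2 fold change of -0.88 (standard error 0.265, 95% confidence interval -1.43 to -0.32, adjusted p = 0.192 by edgeR's test), which passed only when no filter on low counts was used (adjusted p = 0.0166). Dgcr6 overlaps Prodh on the opposite strand, as opposite-strand records do for 20 of the 49 members. Aldh4a1, which takes the product of Prodh to glutamate, had a range of group means of 1.29-fold, Prodh2, hydroxyproline dehydrogenase, 1.28-fold, and Aass, the bifunctional enzyme at the start of lysine breakdown, 1.29-fold.

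In the branched chain route, Bckdhb (chromosome 9, 83925145 to 84124240) encodes a subunit of the branched chain keto acid dehydrogenase. It had 86.4, 62.8 and 79.7 CPM in WT corn oil, 67.5, 51.9 and 70.4 CPM in WT CITCO, 76.7, 91.4 and 75.9 CPM in hCAR/hPXR and 81.3, 79.3 and 82.1 CPM in Car KO/hPXR libraries. Both humanised groups lay above WT CITCO without overlap, with 0.36 on the log2 scale for hCAR/hPXR (standard error 0.179, edgeR adjusted p = 0.584). The partner subunit Bckdha and the leucine enzymes Ivd and Mccc1 had ranges of 1.12-fold, 1.27-fold and 1.1-fold.

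**Figure D3:**
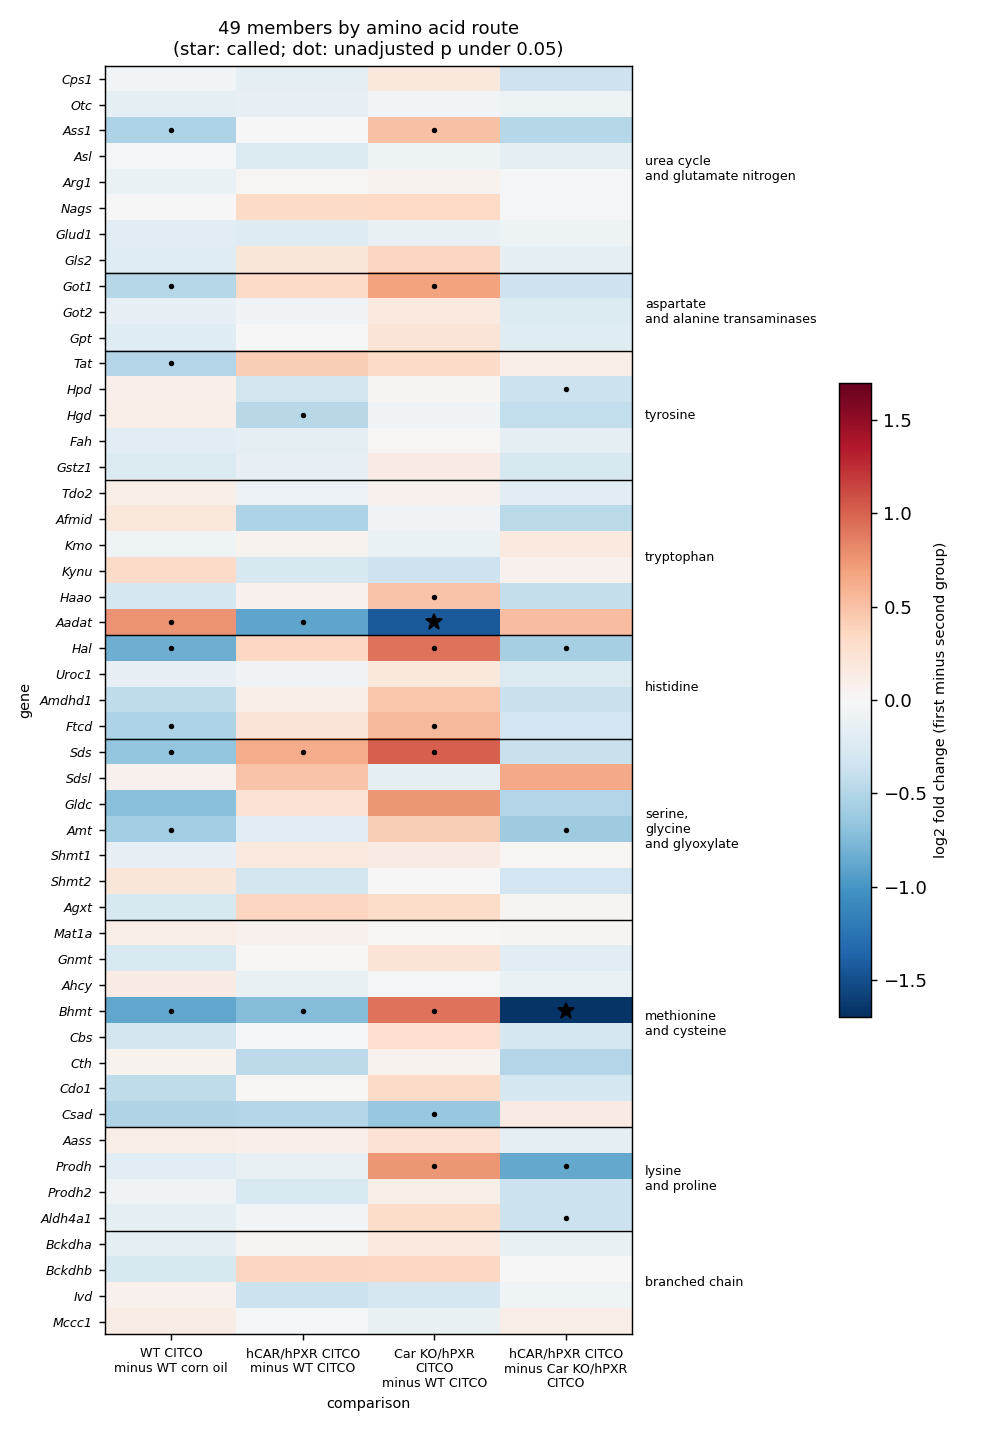
Log2 fold change (colour, red higher and blue lower in the group named first) of the 49 genes (rows, grouped by route) in the 4 comparisons (columns); a star marks a called gene and a dot an unadjusted p under 0.05. The 2 stars are Bhmt for hCAR/hPXR against Car KO/hPXR and Aadat for Car KO/hPXR against WT, both given CITCO.

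Over the whole list, the comparison of WT CITCO with WT corn oil asks what CITCO did in mice with their own receptors. edgeR called 0 of the 49 genes, where 0.233% of all genes tested were called, and DESeq2 called 2, Hal and Bhmt. At an unadjusted p under 0.05 there were 9 members (18.4%, against 9.13% of all genes tested): Ass1, Got1, Tat, Hal, Ftcd, Sds, Amt and Bhmt were lower with CITCO (8 genes, against 4.61% of all genes tested) and Aadat was higher (1 gene, against 4.53%). The median log2 fold change of the members was -0.17, with 34 below 0 and 15 above, and that of all genes tested -0.00, with 50% below 0. Without WT corn oil replicate 1 the median of the members was -0.03, and without WT CITCO replicate 1 -0.10. For 8 members, 16.3%, every WT CITCO library lay below every WT corn oil library, which held for 7.85% of all genes tested, and for 0 members above (6.88% of all genes tested).

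Between hCAR/hPXR and WT livers, both given CITCO, edgeR again called 0 members, where 0.407% of all genes tested were called, and DESeq2 called 1, Bhmt. The list that the paper gives for this comparison, also from DESeq2, differs: it holds Aadat and not Bhmt. An unadjusted p under 0.05 was found for 4 members (8.16%, against 8.81% of all genes tested), with Hgd, Aadat and Bhmt lower (all genes, 4.07%) and Sds higher (all genes, 4.74%) in hCAR/hPXR livers. The median of the members was -0.02 on the log2 scale, with 26 below 0 and 23 above, and that of all genes tested 0.01, with 48.4% below 0 and 51.6% above. Without hCAR/hPXR replicate 3 the median of the members was -0.17, and without WT CITCO replicate 1 -0.11. The libraries did not overlap for 4 members that were lower, Hpd, Afmid, Bhmt and Cth (all genes, 6.53%), and for 2 that were higher, Hal and Bckdhb (all genes, 7.12%). These shares of the list were near those of all genes.

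For Car KO/hPXR against WT livers given CITCO, 10 members had an unadjusted p under 0.05 (20.4%, against 9.3% of all genes tested). Ass1, Got1, Haao, Hal, Ftcd, Sds, Bhmt and Prodh were higher (8 genes, against 4.88% of all genes tested) and Aadat and Csad lower (2 genes, against 4.42%) in Car KO/hPXR livers. The median of the members was 0.16, with 36 above 0 and 13 below, and that of all genes tested -0.00, with 49.5% above 0 and 50.5% below. The libraries did not overlap for 11 members that were higher (22.4%, against 7.45% of all genes tested) and for 1, Aadat, that was lower (all genes, 6.77%).

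For hCAR/hPXR against Car KO/hPXR livers, 6 members had an unadjusted p under 0.05 (12.2%, against 10.6% of all genes tested). All 6 were lower in hCAR/hPXR livers, where 5.03% of all genes tested were lower and 5.6% higher by this measure: Hpd, Hal, Amt, Bhmt, Prodh and Aldh4a1. The median was -0.21, with 38 members below 0 and 11 above, and that of all genes tested 0.01, with 48.5% below 0 and 51.5% above. All 8 genes of the urea cycle and glutamate nitrogen, the 3 transaminases, the 4 histidine genes and the 4 lysine and proline genes had values below 0, with route medians of -0.13, -0.23, -0.35 and -0.37. The libraries did not overlap for 10 members that were lower in hCAR/hPXR livers (20.4%, against 7.06% of all genes tested) and for 2, Aadat and Sdsl, that were higher (all genes, 8.01%). The WT CITCO libraries serve in 3 of the 4 comparisons and both humanised groups in 2 each, so these counts are not independent of each other.

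**Figure D4:**
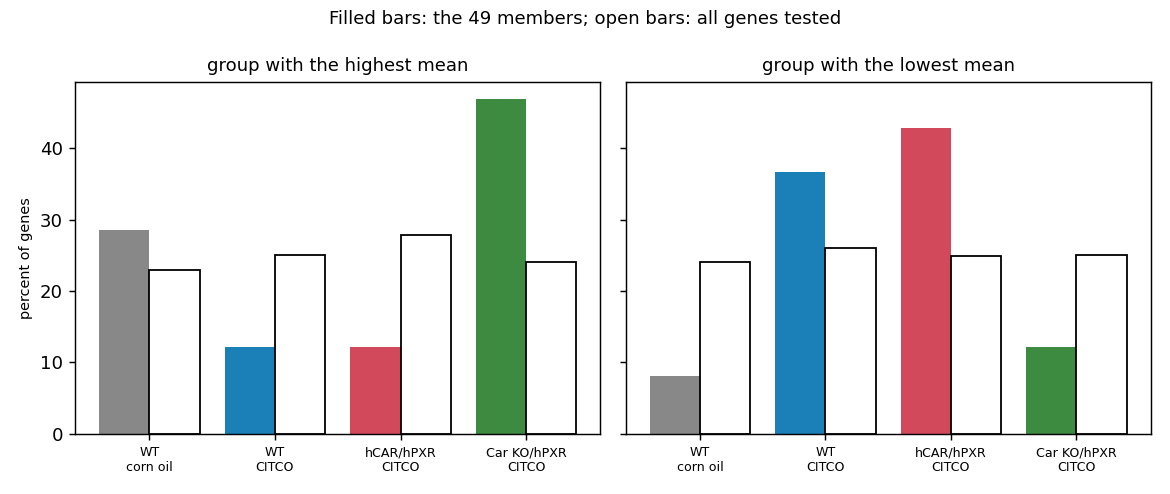
Percent of genes (y axis, from 0) whose highest group mean (left) or lowest group mean (right) fell in each of the 4 groups; filled bars are the 49 members and open bars all 8594 genes tested. The highest mean was in Car KO/hPXR livers for 46.9% of the members and 24% of all genes, and the lowest in hCAR/hPXR livers for 42.9% and 24.9%.

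Read across the groups, the highest mean of a member was in Car KO/hPXR livers for 23 genes, in WT corn oil for 14, and in WT CITCO and hCAR/hPXR for 6 each. The lowest was in hCAR/hPXR for 21 genes, in WT CITCO for 18, in Car KO/hPXR for 6 and in WT corn oil for 4. Over all genes tested, in the order WT corn oil, WT CITCO, hCAR/hPXR and Car KO/hPXR, the shares were 23%, 25.1%, 27.9% and 24% for the highest mean and 24.1%, 26%, 24.9% and 25% for the lowest. Only 4 genes had group means that differed by at least 2-fold: Bhmt (3.16-fold), Aadat (2.69-fold), Csad (2.23-fold) and Sds (2.01-fold). For 8 members more than 1 value in 10 lay further than 0.05 from a whole number, as when reads are split among gene records: Bhmt, Sds, Glud1, Gls2, Shmt1, Ahcy, Got2 and Afmid.

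Other genes of the same pathways were also tested. Of 60 listed neighbours (carriers, cofactor enzymes and the remaining subunits and steps), 49 were tested, and 1 was called in any of the 4 comparisons. This was Gamt, which makes creatine from guanidinoacetate and consumes methyl groups (chromosome 10, 80258151 to 80261012). It had 371, 405 and 389 CPM in WT corn oil, 353, 305 and 399 CPM in WT CITCO, 249.7, 299.7 and 364 CPM in hCAR/hPXR and 579, 472 and 549 CPM in Car KO/hPXR libraries. The Car KO/hPXR libraries were the highest of the 12. Gamt was lower in hCAR/hPXR livers than in Car KO/hPXR ones (-0.81 on the log2 scale, standard error 0.162, edgeR adjusted p = 0.0242). The call was lost in 4 of 13 alternatives, each of which left out a library: hCAR/hPXR replicate 1 (adjusted p = 0.147), hCAR/hPXR replicate 2 (0.0677), Car KO/hPXR replicate 1 (0.123) and Car KO/hPXR replicate 3 (0.114). The neighbours had 12 genes above 0 and 37 below in that comparison (median -0.17), where 51.5% of all genes tested were above 0 and 48.5% below. Of all genes tested, 0.582% were called between these groups. Of 16 listed amino acid transporters 11 were tested. A list for the amino acid stress factor ATF4 held 12 genes, and 5 were tested: Atf4 itself, Atf5, Trib3, Ddit3 and Gadd45a. From both lists edgeR called 0 genes in all 4 comparisons. At an unadjusted p under 0.05 the transporters had 3 genes for WT CITCO against WT corn oil, all higher (4.53% of all genes tested were), 1 higher for hCAR/hPXR against Car KO/hPXR and 0 in the other comparisons. The 5 genes of the ATF4 list had 1 higher and 3 lower for WT CITCO against WT corn oil (4.53% and 4.61% of all genes tested). Against WT CITCO they had 2 higher and 0 lower in hCAR/hPXR (4.74% and 4.07%) and 2 higher and 1 lower in Car KO/hPXR livers (4.88% and 4.42%), and 1 was higher when hCAR/hPXR was set against Car KO/hPXR (5.6%).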

How the data were processed

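Liver RNA of 12 mice in 4 groups of 3 was sequenced from 3′ ends (QuantSeq for Ion Torrent). The authors trimmed with Trimmomatic 36, aligned with STAR 2.5.2 to GRCm38 and deposited RSEM 1.3 expected counts per gene, not normalised, and DESeq2 variance-stabilised log2 values. Groups and replicate numbers came from the sample labels. Expected counts were rounded (in detected genes 9.34% had decimals), filtered with edgeR's filterByExpr, scaled by TMM and tested in R 4.3.3 with edgeR 4.0.16 (quasi-likelihood, 1 mean per group, all 12 libraries in 1 fit). Confidence intervals (95%) use the same fit. Tests were checked on simulated counts. Alternatives were DESeq2 1.42.0 (size factors; whole test), limma 3.58.1 on the log2 values, other filters, a replicate block, fits of only the groups compared, no fold threshold, and leaving out each library. Members, lists and tests were chosen with earlier results of these data known. Named with full statistics were members called in any test and, for routes without any, the member with the smallest p over the 4 groups. From related lists, genes called in any comparison were named. Coordinates are GENCODE M21, promoters RefSeq GRCm38.p6; 38 of the 49 members matched. Exact permutation of 3 against 3 libraries cannot give a p below 0.1.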

Additional observations from a re-analysis of the deposited data

How the results depend on the processing

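Without the filter on low counts edgeR called 2 members for WT CITCO against WT corn oil, 2 for hCAR/hPXR against WT, 6 for Car KO/hPXR against WT, 2 for hCAR/hPXR against Car KO/hPXR and 7 over the 4 groups, in place of 0, 0, 1, 1 and 3. All genes called then numbered 179, 184, 227, 233 and 540, in place of 20, 35, 22, 50 and 122. DESeq2 called 2, 1, 3, 1 and 4 members, the last including Amt, and 44, 64, 67, 99 and 221 of all genes. With the replicate block, Car KO/hPXR against WT had 0 called members and the test over the 4 groups 1. Whether the replicate numbers pair the libraries was not settled. Of 18 same-numbered pairs, 0 had deviations correlated over 0.1 (highest 0.0741). However, 9 of 12 libraries correlated best with a library of their own number, and the main fit takes no account of replicate number. Leaving out each library gave 0 to 1, 0 to 1, 0 to 2, 1 to 1 and 1 to 2 called members. No value reversed. Median log2 fold changes of the members stayed within -0.23 to -0.03, -0.17 to -0.00, 0.12 to 0.23 and -0.31 to -0.16 over all alternatives, in the order of the comparisons. The causes were not tested. With 3 libraries per group and 1167027 to 2341572 counts in a library, a gene that was not called is not shown to be unchanged.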

Other observations

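The regulators tested were 14 genes: transcription factors that act on metabolic genes in liver, the coactivators Ppargc1a and Crtc2, and the glucagon receptor Gcgr. Of these, 2 rose in WT CITCO against WT corn oil livers, where 0.233% of all genes tested were called. They were Onecut1 (HNF6, a hepatocyte factor), at 3.17 on the log2 scale (standard error 0.338, edgeR adjusted p = 0.000195), and Foxa2 (1.12, standard error 0.212, adjusted p = 0.0292). Onecut1 had 7.61, 7.76 and 23.5 CPM with corn oil and 144, 113 and 90.1 CPM with CITCO in WT livers, 37.3, 19.7 and 26.7 CPM in hCAR/hPXR livers and 47.7, 41.7 and 43.5 CPM in Car KO/hPXR livers. The WT CITCO libraries were the highest of the 12. Against WT CITCO, hCAR/hPXR livers had lower Onecut1 (-2.04, adjusted p = 0.00262) and Foxa2 (-1.25, adjusted p = 0.00961) and higher Prox1 (1.18, adjusted p = 0.00902), a homeobox factor of hepatocytes, where 0.407% of all genes tested were called. Foxa2 was also lower in hCAR/hPXR livers than in Car KO/hPXR ones (-1.10, adjusted p = 0.0242). No regulator was called for Car KO/hPXR against WT by edgeR, where 3 of 14 had an unadjusted p under 0.05 (9.3% of all genes tested).

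The Onecut1 calls held in all 13 alternatives of each comparison, but the sizes moved: against WT corn oil it was 3.90 on the log2 scale without WT corn oil replicate 3 and 1.95 with limma on the transformed values, and for hCAR/hPXR against WT it was -1.40 with limma. The Foxa2 call for WT CITCO against WT corn oil was lost in 6 of 13 (adjusted p up to 0.204, without WT CITCO replicate 1) and its call between hCAR/hPXR and Car KO/hPXR in 5 of 13 (up to 0.14, without Car KO/hPXR replicate 1). The Foxa2 and Prox1 calls between hCAR/hPXR and WT livers were each lost once, without WT CITCO replicate 1, at adjusted p-values of 0.0708 and 0.0822.

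Of 13 fasting and glucocorticoid response genes tested, 1 was called in a comparison: Igfbp1, an insulin-repressed binding protein of insulin-like growth factors. It had 210, 193 and 314 CPM in hCAR/hPXR libraries and 27.2, 19.4 and 61.9 CPM in WT CITCO libraries (2.72 on the log2 scale, standard error 0.368, edgeR adjusted p = 0.000783, called in all 13 alternatives), a comparison in which 0.407% of all genes tested were called. Without WT CITCO replicate 3 it was 3.34 on the log2 scale, and with limma on the transformed values 2.09. In WT corn oil libraries it had 116, 97.3 and 93.0 CPM and in Car KO/hPXR libraries 47.7, 117 and 139 CPM, so WT corn oil lay between, and Car KO/hPXR overlapped WT CITCO and WT corn oil.

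Of the marker lists, the neutrophil list held the called genes outside the 49. S100a9 was called over the 4 groups (adjusted p = 0.0327, edgeR's test). S100a8 was called there too (adjusted p = 0.00114) and was higher in hCAR/hPXR than in WT livers given CITCO (2.54, adjusted p = 0.00961, edgeR's test) and than in Car KO/hPXR livers (2.16, adjusted p = 0.0242). The first of these comparisons lost its call without WT CITCO replicate 3 (0.0535), hCAR/hPXR replicate 2 (0.051) or hCAR/hPXR replicate 3 (0.064). The second lost it without hCAR/hPXR replicate 2 or 3 or any Car KO/hPXR library (0.0605 to 0.13).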
